A study of Homo sapiens with 6 samples.

Results

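The 10 genes described here encode the nutrient- and stress-responsive controls of mTORC1, a kinase complex that drives protein synthesis and growth: the sestrins SESN1, SESN2 and SESN3, the mTORC1 inhibitors DDIT4, DDIT4L and DEPTOR, the Rag GTPases RRAGC and RRAGD, the folliculin gene FLCN and the transcription factor gene TFEB. They were chosen by gene symbol, with earlier results of these data known, so how many of them were called is a description only. All 10 were found among the 17269 genes of the deposited table. They also passed the filter on low counts, which left 13104 genes. RNA came from HCT116, a human colorectal cancer cell line that has long been in use, grown in RPMI1640 with 10% fetal bovine serum. A control group (shCtrl, 3 libraries; its genotype is labelled WT) was compared with a PRSS22 knockdown group made with a short hairpin RNA (shPRSS22, 3 libraries), and the question is which transcripts differ when PRSS22, a secreted serine protease, is depleted. The labels give neither the hairpin, nor whether the cells are 1 clone, nor the time after knockdown, and they do not say that replicates came from separate cultures, so the p-values reflect the spread among these libraries alone and that spread may be technical. In bulk RNA, fewer cells expressing a gene and less of its RNA per cell cannot be told apart.

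The pathway works as a set of switches on the lysosome. When amino acids are plentiful, heterodimers of RRAGA or RRAGB with RRAGC or RRAGD, anchored by the Ragulator complex, bring mTORC1 to the lysosomal surface, where the GTPase RHEB activates it. GATOR1 turns the Rag GTPases off and GATOR2 opposes GATOR1. SESN2, which binds leucine, holds GATOR2 back when leucine is scarce. DDIT4 acts through the TSC complex, the brake on RHEB, while DEPTOR binds mTOR itself. Folliculin acts on RRAGC and RRAGD and allows mTORC1 to phosphorylate TFEB, which is then kept out of the nucleus; TFEB in turn is known to activate lysosomal genes and RRAGD. Sestrin and DDIT4 transcripts are known targets of stress factors such as ATF4, FOXO proteins and HIF1A.

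Library totals lay between 14920523 and 15466647 estimated counts. PRSS22 was lower in every knockdown library, at 9.38 to 10.1 CPM in shCtrl and 2.61 to 3.16 CPM in shPRSS22 (CPM is the count per 1000000 of the library's scaled total). Of the genes tested, 39.1% passed an adjusted p of 0.05 (edgeR quasi-likelihood test with Benjamini-Hochberg adjustment over all genes tested, used throughout), 19.9% higher and 19.3% lower in shPRSS22, so a small change in a single gene was common in this comparison. Markers of colorectal epithelium such as KRT8 and EPCAM were abundant, their sum being 4383 to 4543 CPM in shCtrl and 4364 to 4650 CPM in shPRSS22. Of the 6 in that list, CLDN7 (log2 fold change 0.29, adjusted p = 4.33e-08) and CDH1 (0.15, adjusted p = 9.01e-04) rose. EPCAM, KRT8, KRT18 and KRT19 did not pass the threshold. Of 13 markers of fibroblasts, immune and endothelial cells in the table, CDH5 had no count in any library, PTPRC, DCN and COL1A2 had none in shCtrl and 1 or 2 in all in shPRSS22, and the list's sum, most of it COL1A1, was 26.4 to 35.0 CPM in shCtrl and 32.4 to 38.2 CPM in shPRSS22.

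Of the 10 genes, 4 rose in shPRSS22 (SESN2, SESN3, RRAGC and DDIT4) and 2 fell (DEPTOR and RRAGD), against 39.1% of all genes called in either direction. The remaining 4, SESN1, DDIT4L, FLCN and TFEB, did not pass the threshold. The median log2 fold change of the 10 was 0.07, beside -0.0056 over all genes tested. The changes were small: the largest rise was 1.296-fold and the largest fall was to 0.788 of the control level. The groups did not overlap for 6 of the 10 genes, 4 higher and 2 lower, where 48.6% of all genes tested had no overlap, 24.2% higher and 24.3% lower. The authors' deposited table, in which 18.6% of genes have a q-value under 0.05, has the same 4 genes higher and calls none of the 10 lower, with q-values of 0.0528 for DEPTOR and 0.0680 for RRAGD.

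**Figure D1:**
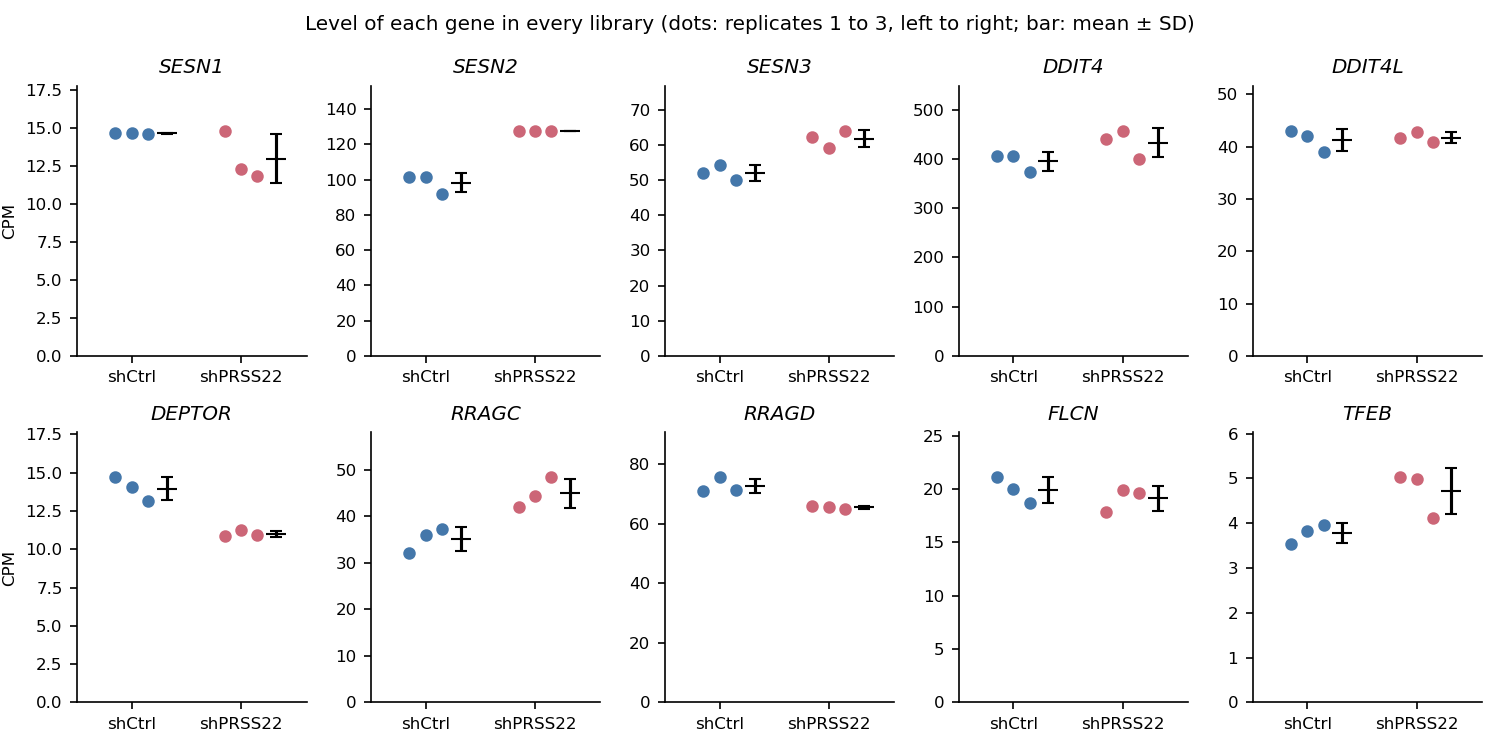
CPM of each of the 10 genes in the 3 shCtrl (blue) and 3 shPRSS22 (red) libraries, with replicates from left to right and the mean ± SD as a black bar; each vertical axis starts at 0. SESN2, SESN3, RRAGC and TFEB were higher and DEPTOR and RRAGD lower with no overlap between the groups, whereas the groups of SESN1, DDIT4, DDIT4L and FLCN overlapped.

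The upstream sequences of 3 genes that rose are printed here, each as the 250 bases before the RefSeq transcript start on GRCh38.p14, 5′ to 3′ on the gene's own strand. RRAGC (chr1:38859773-38860022, minus strand) and SESN2 (chr1:28259268-28259517, plus strand) had the largest rises, and DDIT4 (chr10:72273674-72273923, plus strand) was the most abundant. Capitals mark the motif matches described next.
RRAGC: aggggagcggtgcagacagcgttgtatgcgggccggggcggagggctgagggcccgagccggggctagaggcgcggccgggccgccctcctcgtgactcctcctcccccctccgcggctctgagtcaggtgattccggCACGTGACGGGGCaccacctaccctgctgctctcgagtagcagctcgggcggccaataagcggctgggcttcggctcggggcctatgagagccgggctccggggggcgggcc
SESN2: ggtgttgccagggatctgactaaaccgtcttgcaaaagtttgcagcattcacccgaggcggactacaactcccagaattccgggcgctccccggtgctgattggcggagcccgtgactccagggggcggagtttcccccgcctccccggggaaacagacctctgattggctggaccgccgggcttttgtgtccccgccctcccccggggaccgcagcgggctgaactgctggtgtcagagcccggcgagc
DDIT4: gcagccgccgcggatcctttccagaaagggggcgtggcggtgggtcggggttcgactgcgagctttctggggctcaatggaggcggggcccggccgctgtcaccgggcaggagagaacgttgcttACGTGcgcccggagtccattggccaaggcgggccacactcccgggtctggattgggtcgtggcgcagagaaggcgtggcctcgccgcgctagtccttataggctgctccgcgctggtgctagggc

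RefSeq windows of 300 bases, from 250 before to 50 after a start, were at hand for 8 of the 10 genes (not for DEPTOR and RRAGD, the 2 that fell), 12 windows in all, with 3 alternative starts each for SESN1 and TFEB. Each was searched on both strands for CACGTG, the E-box bound by TFEB, TFE3, MITF and other factors; ACGTG, the HIF core, which overlaps that E-box; TGATGNAA, the C/EBP-ATF response element core; TGACNNNGC, the antioxidant response element core; and GTAAACA, a FOXO site. The RRAGC window was the only one of the 12 with CACGTG, 112 bases before the start, a motif held by 7.26% of all 35116 promoter windows. An antioxidant element core began in the same stretch, 108 bases before the start, on letters shared with the E-box, and 13.3% of all windows hold that core. The HIF core, in 21.4% of all windows, lay within the RRAGC E-box on both strands. DDIT4 held it 125 bases before its start, and the window of SESN2 held none of these motifs. A window of SESN1 held an antioxidant core. TGATGNAA and GTAAACA, in 3.62% and 3.42% of all windows, were in none of the 12. A match of letters is a description only, and the counts of a gene do not show which start was used.

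Levels per transcript length, in the deposited TPM values, spanned a wide range and are the only values here that may be compared between genes. In shCtrl, DDIT4 stood first at 439 ± 19.4 TPM (SD, n = 3), followed by SESN2 at 49.6 ± 2.52 TPM and DDIT4L at 28.7 ± 1.34 TPM. RRAGD at 24.6 ± 0.815 TPM and RRAGC at 23.6 ± 1.79 TPM overlapped. So did FLCN at 9.97 ± 0.383 TPM and DEPTOR at 9.86 ± 0.530 TPM, and SESN3 at 8.94 ± 0.329 TPM lay just below DEPTOR's lowest library. SESN1 at 4.80 ± 0.0700 TPM and TFEB at 2.99 ± 0.221 TPM were lowest. In shPRSS22 the order differed: RRAGC, at 30.4 ± 2.26 TPM, stood above RRAGD at 22.3 ± 0.435 TPM and level with DDIT4L at 29.2 ± 0.370 TPM. SESN3, at 10.7 ± 0.639 TPM, stood above FLCN at 9.47 ± 0.435 TPM and DEPTOR at 7.80 ± 0.0306 TPM. The ranges of RRAGC and DDIT4L overlapped there.

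**Figure D2:**
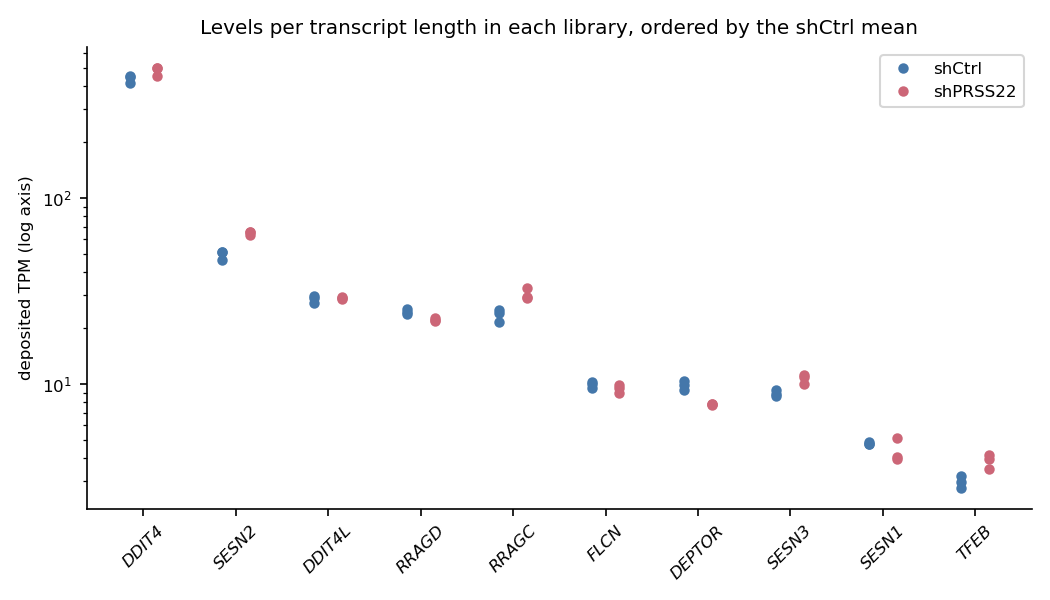
Deposited TPM of the 10 genes on a log axis, ordered by the shCtrl mean, with 3 shCtrl (blue) and 3 shPRSS22 (red) libraries per gene. DDIT4 lies between 417 and 501 TPM and TFEB between 2.78 and 4.16 TPM, and RRAGC lies level with RRAGD in shCtrl and above it in shPRSS22.

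Of the sestrins, SESN2 was the most abundant and rose most. SESN2 (Entrez 83667; chromosome 1, 28259527 to 28282491, plus strand of GRCh38 in GENCODE 29) stood at 101, 102 and 91.9 CPM in shCtrl replicates 1 to 3 and at 127, 128 and 127 CPM in shPRSS22 replicates 1 to 3. All knockdown libraries lay above all control libraries. The coefficient of variation was 0.0925% in shPRSS22, against 5.66% in shCtrl. Sampling noise alone is larger than 0.0925% at the 1941 to 1979 counts of the knockdown libraries. So close an agreement of 3 values is thus no measure of tighter expression. The log2 fold change was 0.37 (SE 0.0404, adjusted p = 6.21e-09), a rise of 29.6% (95% interval 22.4% to 37.2%). Under the 14 alternative settings it ranged from 0.33 to 0.40 and passed the threshold in each.

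SESN3, a relative known as a target of FOXO factors (Entrez 143686; chromosome 11, 95165513 to 95232541, minus strand), stood at 51.9, 54.3 and 49.9 CPM in shCtrl and at 62.3, 59.1 and 63.9 CPM in shPRSS22. The groups did not overlap, and the log2 fold change was 0.25 (SE 0.0495, adjusted p = 1.66e-04). FOXO1, FOXO3 and FOXO4, which encode such factors, had log2 fold changes of -0.0041, -0.04 and -0.14 and did not pass the threshold. Their transcript levels do not measure the activity of the factors. SESN1 (Entrez 27244; chromosome 6, 108986437 to 109094819, minus strand), stood at 14.7, 14.7 and 14.6 CPM in shCtrl. In shPRSS22 it was 14.8 CPM in replicate 1, at the control level, and 12.3 and 11.8 CPM in replicates 2 and 3, below it. Its log2 fold change of -0.17 (SE 0.0921, 95% interval -0.36 to 0.01) did not pass the threshold (adjusted p = 0.135). Without shPRSS22 replicate 1 it was -0.28 and passed (adjusted p = 0.0252). An antisense gene shares 7.09% of the exonic bases of SESN1.

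Per length, SESN2 made up 77.7% to 78.8% of the summed sestrin TPM in shCtrl and 80.4% to 81.8% in shPRSS22. SESN1 made up 7.33% to 7.90% and then 4.91% to 6.26%, and neither range overlapped between the groups. The sum of the 3 sestrins was 60.1 to 65.1 TPM in shCtrl and 77.3 to 81.8 TPM in shPRSS22. These shares are given as descriptions, with no test.

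The paralogous Rag GTPases RRAGC and RRAGD, which occupy the same place in the Rag heterodimer, moved in opposite directions. RRAGC (Entrez 64121; chromosome 1, 38838198 to 38859823, minus strand) stood at 32.2, 36.0 and 37.2 CPM in shCtrl and at 42.2, 44.5 and 48.4 CPM in shPRSS22. Every knockdown library was above every control library; the log2 fold change was 0.36 (SE 0.0611, adjusted p = 2.12e-05), a rise of 28.0% (95% interval 17.4% to 39.6%). Of its exonic bases 22.9% are shared with a transcript on the same strand annotated as a separate gene, so reads there cannot be told apart.

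RRAGD (Entrez 58528; chromosome 6, 89364636 to 89412270, minus strand), which no annotated gene overlaps in its exons, stood at 71.0, 75.5 and 71.4 CPM in shCtrl and at 65.8, 65.7 and 64.8 CPM in shPRSS22. The groups did not overlap, but the gap was small, and the log2 fold change was -0.15 (SE 0.0444, adjusted p = 0.00752), a change of -9.86% (95% interval -15.3% to -4.03%). With the highest library, shCtrl replicate 2, left out the value was -0.12 and no longer passed (adjusted p = 0.0623), nor did it with DESeq2 (adjusted p = 0.0515) or with limma on the TPM values (adjusted p = 0.0626). The share of RRAGC in the summed TPM of the pair was 47.5%, 48.5% and 50.8% in shCtrl and 55.9%, 57.2% and 59.8% in shPRSS22. Their sum was 45.5 to 49.5 TPM in shCtrl and 51.2 to 55.3 TPM in shPRSS22.

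FLCN, whose product folliculin acts on these GTPases (Entrez 201163; chromosome 17, 17212212 to 17237188, minus strand), stood at 21.1, 20.01 and 18.7 CPM in shCtrl and at 17.8, 19.9 and 19.7 CPM in shPRSS22. The groups overlapped, and the log2 fold change of -0.06 (95% interval -0.21 to 0.10) did not pass the threshold (adjusted p = 0.567). A protein-coding gene annotated on the same strand shares 11.9% of its exonic bases. The partners of folliculin, FNIP1 at -0.04 and FNIP2 at -0.06, did not pass either.

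DDIT4, also known as REDD1, which is induced by hypoxia, amino acid stress and glucocorticoids (Entrez 54541; chromosome 10, 72273920 to 72276036, plus strand), stood at 406, 406 and 373 CPM in shCtrl and at 441, 457 and 400 CPM in shPRSS22. Replicate 3 was the lowest library of both groups, and shPRSS22 replicate 3 lay below 2 control libraries. The log2 fold change was 0.13 (SE 0.0446, adjusted p = 0.0261), a rise of 9.47% (95% interval 2.59% to 16.8%). It passed under 10 of the 14 alternative settings but no longer passed when shCtrl replicate 3 was left out (0.093, adjusted p = 0.115). The same held on leaving out shPRSS22 replicate 1 (0.12, adjusted p = 0.0878) or its replicate 2 (0.093, adjusted p = 0.103), and with upper-quartile scaling (adjusted p = 0.0778). Of the exonic bases of DDIT4, 41.2% are shared with an antisense gene, DDIT4-AS1, and the libraries are not described as stranded, so reads of the 2 genes cannot be told apart there.

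DDIT4L, a paralog of DDIT4 (Entrez 115265; chromosome 4, 100185870 to 100190782, minus strand), stood at 43.0, 42.0 and 38.9 CPM in shCtrl and at 41.6, 42.8 and 40.8 CPM in shPRSS22. The groups overlapped, and the interval of its log2 fold change, 0.02, ran from -0.10 to 0.13 (adjusted p = 0.852). Per length, DDIT4 exceeded DDIT4L by a ratio of 15.2 to 15.48 in shCtrl and 15.7 to 17.1 in shPRSS22.

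DEPTOR, an inhibitor that binds mTOR in both of its complexes (Entrez 64798), was the gene of the 10 that fell most. It stood at 14.7, 14.1 and 13.2 CPM in shCtrl and at 10.9, 11.2 and 10.9 CPM in shPRSS22, or 199 to 220 counts against 167 to 171. The groups did not overlap, and the log2 fold change was -0.34 (SE 0.0912, adjusted p = 0.00314), a change of -21.2% (95% interval -30.7% to -10.3%). It passed the threshold under each of the 14 alternative settings, with values from -0.38 to -0.31. The highest adjusted p among them was 0.0401, with DESeq2, and the authors' table does not call DEPTOR (q-value 0.0528). MTOR did not pass, with a log2 fold change of 0.04, and the TPM ratio of DEPTOR to MTOR was 0.547 to 0.620 in shCtrl and 0.436 to 0.466 in shPRSS22. A lincRNA annotated on the opposite strand shares 9.61% of the exonic bases of DEPTOR.

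TFEB (Entrez 7942; chromosome 6, 41683978 to 41736259, minus strand) was the least abundant gene, with 53, 58 and 60 counts in shCtrl and 78, 76 and 63 in shPRSS22. As CPM it was 3.54, 3.83 and 3.97 in shCtrl and 5.02, 5.00 and 4.11 in shPRSS22, with no overlap, although shPRSS22 replicate 3 lay just above the control libraries. The log2 fold change of 0.32 had an SE of 0.156, the widest of the 10, and did not pass the threshold (adjusted p = 0.107). With limma on the TPM values it was 0.36 and passed (adjusted p = 0.0357). Among the factors of its family, MITF rose from 11.0 ± 0.394 to 16.2 ± 1.08 CPM (log2 fold change 0.55), and TFE3 at 0.03 did not pass. TFE3 held 75.0% to 77.1% of the summed TPM of TFEB, TFE3 and MITF in shCtrl and 68.5% to 70.9% in shPRSS22.

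**Figure D3:**
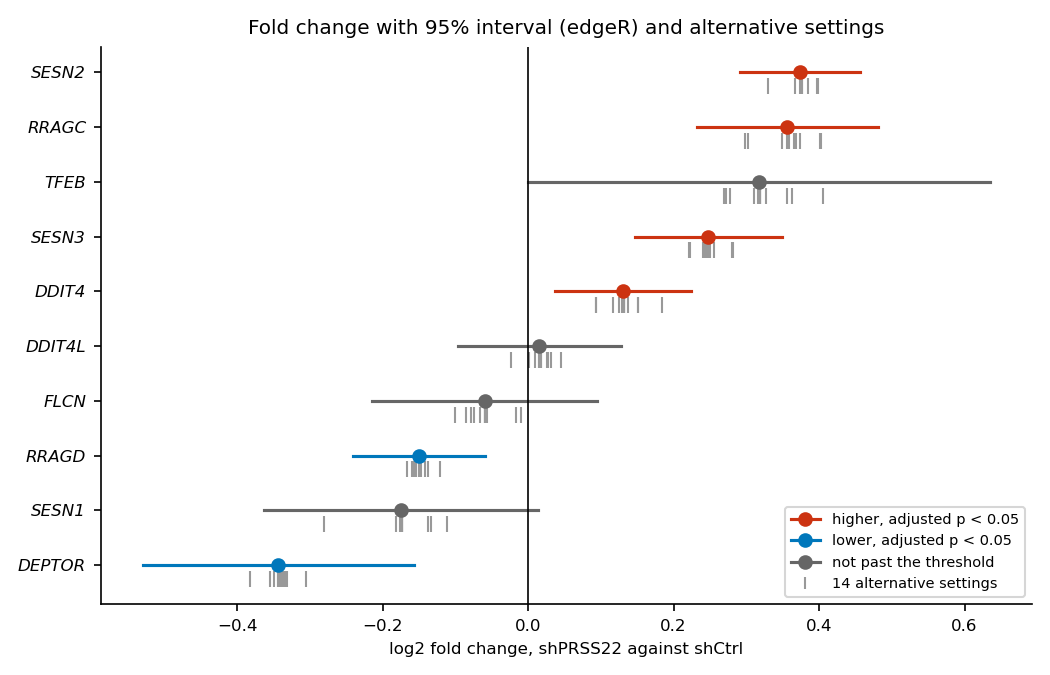
Log2 fold change of each gene, shPRSS22 against shCtrl, with its 95% interval from edgeR (dot and line) and the values under 14 alternative settings (grey ticks). SESN2, RRAGC, SESN3 and DDIT4 lie above 0 and DEPTOR and RRAGD below it in every setting drawn. TFEB, SESN1 and FLCN, not called in the main test, also keep their side of 0 in every setting. DDIT4L crosses 0, and TFEB has the widest interval.

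The other genes of the pathway were taken from lists by role, drawn up with earlier results of these data known. They came to 109 genes, of which 105 were tested. Among them 28 rose and 26 fell, against 19.9% and 19.3% of all genes, and their median log2 fold change was 0.00063. Genes named below that the naming rule did not pick were chosen after their values were seen.

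Amino acid sensors rose in 4 of 6 tested genes and fell in 0, with a median of 0.18. Among all genes tested, 19.9% rose and 19.3% fell, and these lists hold few genes. The S-adenosylmethionine sensor SAMTOR, listed as BMT2, rose by 0.27 on the log2 scale, and LARS1, the leucyl-tRNA synthetase, by 0.21, from 404 ± 4.32 to 469 ± 19.0 CPM. The arginine sensor gene CASTOR1 had a value of -0.27 and did not pass. GATOR1, the inhibitor of the Rag GTPases, and KICSTOR, its lysosomal anchor, had 3 of 7 genes lower and 0 higher: ITFG2 (-0.50, from 5.63 ± 0.710 to 3.997 ± 0.453 CPM), NPRL3 (-0.36) and KICS2 (-0.36). NPRL3 stood at 15.4, 14.86 and 15.0 CPM in shCtrl and at 12.5, 11.0 and 11.7 CPM in shPRSS22. ITFG2 no longer passed on leaving out shCtrl replicate 2 (adjusted p = 0.0748) or shPRSS22 replicate 1 (adjusted p = 0.0577), or with DESeq2 (adjusted p = 0.0765). In GATOR2, 1 of 5 genes rose and 0 fell: SEC13, which also serves in the COPII coat and the nuclear pore, went from 89.5 ± 1.05 to 112 ± 3.71 CPM (0.33).

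Of the other Rag GTPases and Ragulator subunits 1 of 7 rose and 3 fell, against 19.9% and 19.3% of all genes tested. RRAGB fell from 13.04 ± 0.854 to 9.53 ± 0.265 CPM (-0.45), LAMTOR1, the membrane anchor of Ragulator, from 40.2 ± 2.75 to 33.6 ± 0.564 CPM (-0.26), and RRAGA by 0.14 on the log2 scale. RRAGA no longer passed with DESeq2 (adjusted p = 0.151), nor on omitting shCtrl replicate 2 (adjusted p = 0.0876) or 3 (adjusted p = 0.147) or shPRSS22 replicate 3 (adjusted p = 0.163). LAMTOR3 rose by 0.13 but failed to pass under 7 alternatives: DESeq2, upper-quartile scaling, no filter on low counts, and the omission of shCtrl replicate 1 or 2 or of shPRSS22 replicate 1 or 3. RRAGC was therefore the only one of the 4 Rag GTPase genes that rose, and its share of their summed TPM was 18.1% to 19.8% in shCtrl and 23.9% to 27.4% in shPRSS22.

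Of the TSC complex and RHEB, 2 of 5 genes rose and 1 fell, against 19.9% and 19.3% of all genes tested. TSC2 (0.25) and RHEB (0.13) rose and TSC1 fell by 0.13 on the log2 scale. On leaving out shCtrl replicate 1 RHEB no longer passed (adjusted p = 0.111), and TSC1 failed to pass under 9 alternatives, the omission of any one of the 6 libraries among them. Of 10 tested mTOR complex subunits and assembly factors, 2 rose and 2 fell, close to those shares of all genes. MAPKAP1 (0.14) and RICTOR (0.13), both of mTORC2, rose, and TTI1 (-0.26), an assembly factor, and MLST8 (-0.21), a subunit of both complexes, fell. RICTOR no longer passed on leaving out shPRSS22 replicate 3 (0.069, adjusted p = 0.297), shCtrl replicate 1 (adjusted p = 0.136) or its replicate 2 (adjusted p = 0.0852), or with DESeq2 (adjusted p = 0.142). The same held for MLST8 on leaving out shCtrl replicate 2 (adjusted p = 0.188) or shPRSS22 replicate 2 (adjusted p = 0.0645), or with DESeq2 (adjusted p = 0.1497). RPTOR, the subunit that defines mTORC1, had a value of -0.01 and did not pass.

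Among 11 tested mTORC1 substrates and targets 3 rose and 1 fell, against 19.9% and 19.3% of all genes tested. ULK1, the kinase that starts autophagy, rose from 31.6 ± 1.53 to 40.5 ± 0.899 CPM (0.36) and MAF1, a repressor of RNA polymerase III, by 0.22. EIF4EBP2, a repressor of cap-dependent translation, fell from 153 ± 5.09 to 110.0 ± 4.16 CPM (-0.47), whereas its paralog EIF4EBP1 had a value of 0.07 and did not pass. AMPK subunits and their activators, which sense low energy, rose in 3 of 11 tested genes and fell in 4. Subunits of AMPK moved both ways: PRKAB2 (0.19) and PRKAA2 (0.18) rose and PRKAG1 (-0.29) fell. So did the partners of LKB1, STRADB (-0.43) and STRADA (-0.34) falling and CAB39 (0.18) rising, and CAMKK2 (-0.33), another kinase that activates AMPK, fell. PRKAA2 no longer passed on leaving out shCtrl replicate 2 (adjusted p = 0.135) or shPRSS22 replicate 1 (adjusted p = 0.0577), or with DESeq2 (adjusted p = 0.101).

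Of 13 transcription factors known to control sestrins or DDIT4, 4 rose and 0 fell, against 19.9% and 19.3% of all genes tested. The share called in either direction was below the 39.1% of all genes. TP63 rose by 1.13, but from only 0.530 ± 0.0637 to 1.17 ± 0.186 CPM, a level of few counts. XBP1 (0.18), CEBPB (0.18) and NFE2L2 (0.16) also rose. ATF4 (0.05) and HIF1A (0.0049) did not pass, and transcript levels do not measure the activity of these factors.

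Of 26 lysosomal and autophagy genes known as targets of TFEB (the CLEAR genes), 7 rose and 12 fell, with a median of -0.08. Among all genes tested, 19.9% rose and 19.3% fell. The genes that rose included the autophagy receptor SQSTM1, from 507 ± 16.4 to 842 ± 50.03 CPM (0.73), MAP1LC3B (0.59), which coats autophagosomes, and GPNMB (0.70, from 2.06 ± 0.0665 to 3.34 ± 0.387 CPM). GPNMB missed the threshold with DESeq2 (adjusted p = 0.0522). The genes that fell included lysosomal enzymes: the hexosaminidase HEXA went from 40.04 ± 0.0756 to 28.5 ± 1.34 CPM (-0.49) and the peptidase TPP1 from 126 ± 6.02 to 98.4 ± 0.675 CPM (-0.36). Enzymes did not all fall: the galactosidase GLA rose by 0.36, though it missed the threshold with DESeq2 (adjusted p = 0.0709) and on omitting shCtrl replicate 3 (adjusted p = 0.0559) or shPRSS22 replicate 2 (adjusted p = 0.0519).

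**Figure D4:**
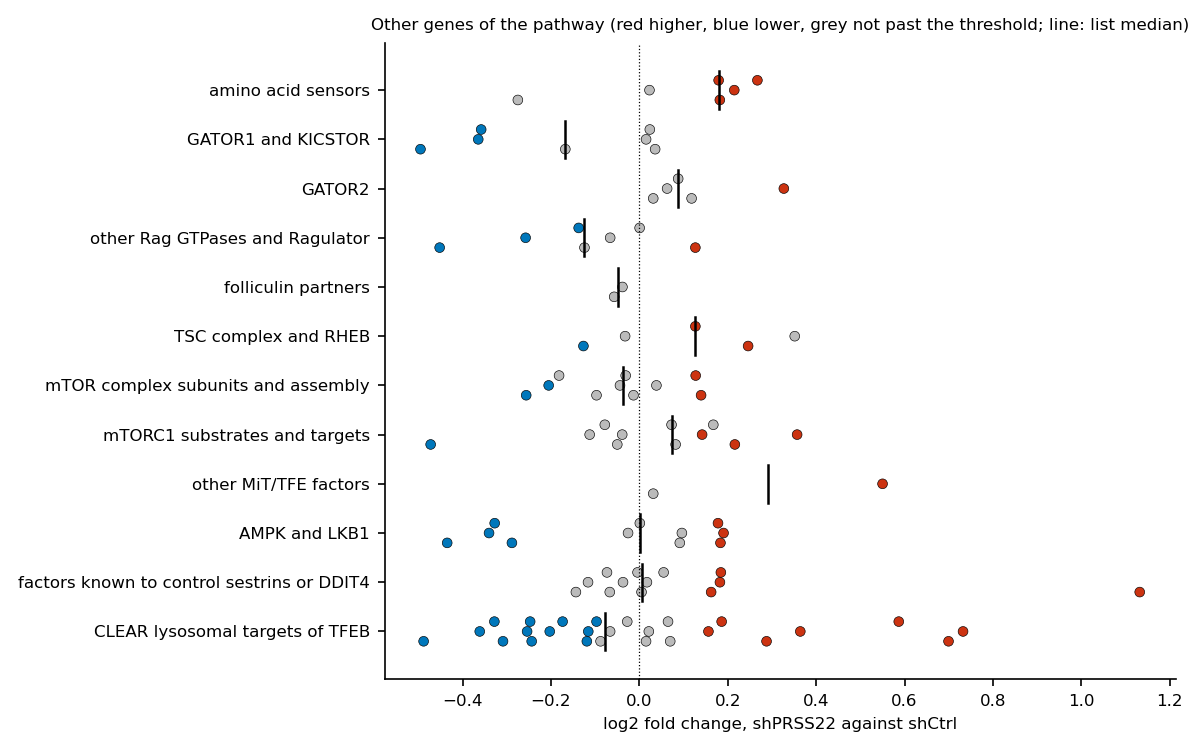
Log2 fold change, shPRSS22 against shCtrl, of the tested genes of each pathway list, in red where higher, in blue where lower and in grey where the threshold was not passed, with a black line at the list's median. The 3 of 7 GATOR1 and KICSTOR genes that were called lie below 0. The 4 of 6 amino acid sensors that were called lie above it. Of all genes tested, 39.1% were called in either direction. The CLEAR genes spread from HEXA at -0.49 to SQSTM1 at 0.73.

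The genes whose profile over the 6 libraries lay nearest to that of a called gene were found by the root mean square difference of log2 CPM, centred on each gene's mean, among 11155 genes of at least 5 CPM. Nearest to SESN2 were CMC2 (0.0221) and ULK1 (0.0237), and ULK1 is the kinase named above. Nearest to SESN3 were PIP4P2 (0.0174) and TRAPPC6B (0.0217), and nearest to RRAGC were COG6 (0.0344) and GMCL1 (0.0364). DDIT4 was nearest to the replication gene MCM6 (0.0187) and to PFKP, a phosphofructokinase (0.0254), which like DDIT4 were lowest in replicate 3 within each group. DEPTOR was nearest to ENTPD6 (0.0207) and AGK (0.0249), and RRAGD to TAPBP (0.0147) and MTA1 (0.0150). With 6 libraries in 2 groups such likeness rests mostly on the difference between the groups and is a description only.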

How the data were processed

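Poly(A) RNA of 6 HCT116 libraries was sequenced, 3 per group. Per the submitters' processing notes, RSEM 1.3.1, HISAT2 2.2.1, DESeq2 1.4.5, Bowtie2 2.3.4.3, R 4.3.1 and FastQC 0.12.1 served in processing on build GRCh38.p13, with no roles given. Per the file headers, the authors deposited a read count, which holds decimals and so is an estimated count, and a TPM value per gene and library. Per gene they also deposited their own p-value, q-value and log2 fold change, printed here only where named as the authors' table.

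Estimated counts were rounded and tested with edgeR 4.0.16 in R 4.3.3 (robust quasi-likelihood F test, TMM scaling, filterByExpr), two-sided, adjusted over 13104 genes, threshold 0.05. The test was checked on simulated data. CPM refers to the TMM-scaled total of the tested genes, errors are SDs over 3 libraries, the SE is the log2 fold change divided by the square root of F, and intervals are 95%. Libraries of a group differed by more than sampling noise, and more so in the knockdown group. Chi-square per gene was 1.82 to 1.88 between shCtrl libraries and 2.17 to 3.12 between shPRSS22 libraries. Alternatives were DESeq2 1.42.0, other scalings and filters, the replicate block, omission of each library, and limma 3.58.1 on log2(TPM + 0.1). Genes were described by name if among the 10, or if among the 2 largest rises or falls called in a pathway list, or in a list with at most 3 tested genes. Other genes of the pathway lists that are named were chosen after their values were seen. The 10 genes and the lists were chosen with earlier results of these data known. Positions are from GENCODE 29 on GRCh38, and promoters from RefSeq. Results on a gene of the lists and on a motif are not reported here.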

Additional observations from a re-analysis of the deposited data

How the results depend on the processing

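SESN2, SESN3, RRAGC and DEPTOR kept their direction and call under all 14 alternatives, and FLCN its direction and its place below the threshold. With upper-quartile scaling DDIT4 was 0.12 and lost its call (adjusted p = 0.0778). RRAGD lost its call with DESeq2 (-0.15) and with limma on TPM (-0.14), so 1 of the 10 genes was lower in each, and TFEB was called with limma (0.36). With DESeq2 1637 genes were lower in all, against 2523 in the main test, and 1760 higher against 2603. Leaving out 1 library gave DDIT4 0.093 to 0.18, DDIT4L -0.023 to 0.045, FNIP2 -0.104 to 0.0028, TFE3 -0.0013 to 0.081, RRAGD -0.17 to -0.12 and SESN1 -0.28 to -0.11, with 3 to 4 of the 10 genes higher and 1 to 3 lower. DDIT4L was reversed without shCtrl replicate 3, and FNIP2 and TFE3 without shPRSS22 replicate 1, none of them past the threshold; the cause was not tested. Of 33 other genes, PRSS22 and those named by the rule, 23 kept direction and call in every setting. The labels do not say whether the replicate numbers pair the samples. Deviations of same-numbered libraries correlated at 0.0046, 0.016 and 0.097 across genes. Differently numbered libraries gave -0.139 to 0.122, so these correlations cannot decide whether the samples were paired. With the replicate number as a block 2782 genes were higher and 2747 lower, and no call among the 10 changed. Depth limits TFEB most, at 53 to 78 counts per library.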
